A study of Danio rerio with 69 samples.

Results

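The genes described here encode the proteasome of the zebrafish (Danio rerio): its subunits, its activators and inhibitor, and the chaperones that assemble it. They were taken as the probe sets whose single gene symbol in the platform annotation starts with psma, psmb, psmc, psmd, psme, psmf or psmg, leaving out psmb8a. This gave 60 probe sets for 49 genes, and for each gene the brightest probe set on average was used. The arrays held 15502 tested probe sets, and 8793 genes with a single symbol. Of the 49 genes, 8 encode alpha subunits and 7 encode constitutive beta subunits of the 20S particle, 7 encode ATPases of the 19S cap, 4 its non-ATPase base and 7 its lid. These 33 are called the core subunits. A further 6 are called the immune genes: the beta subunits psmb9a, psmb10, psmb12 and psmb13a, and psme1 and psme2, which encode the subunits of the PA28 activator. The remaining 10 comprise the nuclear activator gene psme3, the inhibitor gene psmf1, 6 assembly chaperone genes and the genes psmc3ip and psme3ip1, which share the prefix but encode binding partners, not subunits.

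The proteasome degrades proteins tagged with ubiquitin. Its 20S core is a barrel of alpha and beta rings with the proteolytic sites on beta subunits inside, and the 19S cap recognises the tag, unfolds the protein and feeds it in. In mammals interferon induces alternative catalytic beta subunits and PA28, and the resulting immunoproteasome supplies peptides for presentation on MHC class I molecules.

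RNA was measured on 69 arrays, 38 from pineal glands and 31 from brains without the pineal and the eyes, at 3, 5 and 10 days (embryonic in the study's words, called larval here), 3 months and 1 to 2 years (called adult), by day and by night. All groups came from transgenic fish in which the aanat2 promoter, active in the pineal, drives green fluorescent protein. The fish lived at 28.5 °C with 14 h of light a day and 10 h of darkness. The glands were cut out by hand under that fluorescence, and a gland holds photoreceptor cells together with other cells of the tissue. The 20 groups held 2 to 5 arrays, labelled as biological replicates.

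Values are log2 of the deposited intensity plus 16, quantile normalized, and a gene passed the test at a limma adjusted p under 0.05 over all probe sets, with no fold limit. Differences are given as log2 differences ± standard error. The value of 1 probe set cannot be set against that of another, so levels are compared only within a gene. All 16 pineal marker genes measured were higher in pineal than in brain, by a median of 3.15 at larval and 5.62 at adult ages. Within pineal 15 of them were higher in adults than in larvae and 0 lower, with a median of 1.90. From 3 to 10 days 6 of them fell in pineal and 0 rose. The part of these shifts in the age differences of the proteasome genes was not tested. The median intensity of an array ranged from 114.3 to 221.9 and was higher in adult pineal. Its middle value over arrays was 175.4 in pineal at 3 months and 178.65 in the older adult pineal. For every other tissue and age it lay between 131 and 153.4, although single brain arrays reached 183.8. Comparisons with adult pineal are therefore exposed to the scaling between arrays, and the cause of the higher intensity was not tested. A GAPDH 3'/5' ratio, a measure of RNA quality, over 3 was found on 11 arrays. All of these were day arrays except replicate 2 of the 10-day pineal arrays taken at night (6.67). In adult brain the ratios over 3 were 3.40, 5.58, 13.8 and 17.2, and in adult pineal the only one was 3.98. The comparisons of night with day and of adult pineal with adult brain are therefore uneven in this ratio. In tissue samples, fewer cells of a type and less RNA per cell cannot be told apart.

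The core subunits and the immune genes followed separate courses with age. The median over the 33 core subunits on an array averaged 9.81 ± 0.23 (SD, n = 7) in pineal at 3 days, 9.30 ± 0.27 (n = 9) at 5 days and 8.78 ± 0.13 (n = 8) at 10 days. It was 9.33 ± 0.29 (n = 6) at 3 months and 9.27 ± 0.41 (n = 8) at 1 to 2 years. In brain the 3 larval means were 9.88, 9.07 and 8.86 in order of age, and the adult means were 9.40 and 9.52. In both tissues the core was thus at its highest mean at 3 days and at its lowest at 10 days. The median over the 6 immune genes in pineal averaged 5.86, 6.36 and 6.21 in larvae, then 8.81 at 3 months and 8.72 at 1 to 2 years. In brain it averaged 6.06, 6.41 and 6.43, and then 7.46 and 7.57. All 14 adult pineal arrays lay above all 24 larval pineal arrays in this median.

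**Figure D1:**
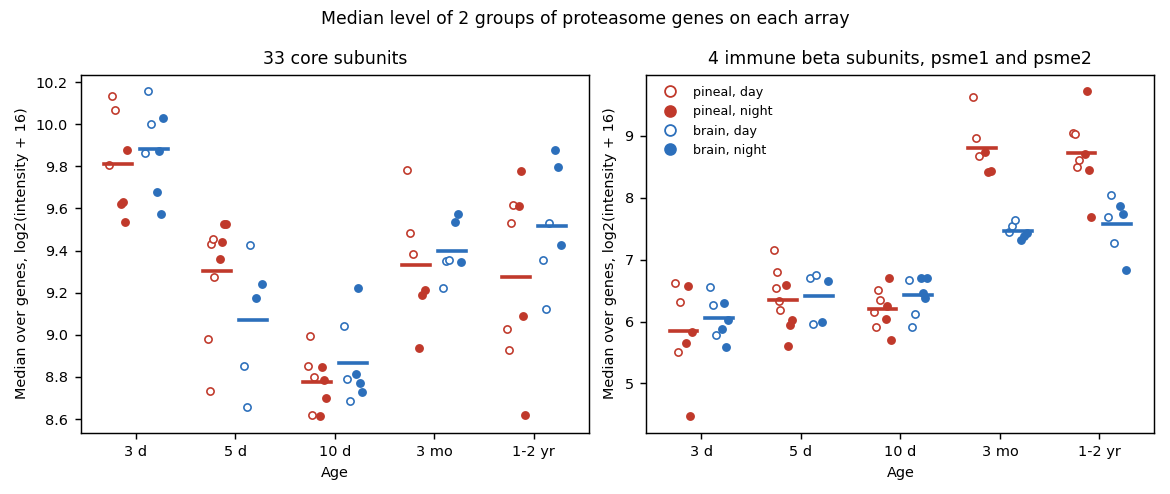
The median level of the 33 core subunits (left) and of the 6 immune genes (right) on each array, as log2(intensity + 16), against age. Points are arrays, red for pineal and blue for brain, open for day and filled for night, and lines are means over day and night. The core is lowest at 10 days in both tissues, with means of 8.78 in pineal and 8.86 in brain, and the immune genes are highest in adult pineal, with means of 8.81 and 8.72.

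The first comparison asks what changed between 3 and 10 days. In pineal, 31 of the 49 genes fell and 0 rose (limma, 8 against 7 arrays), against 23.9% of all probe sets that passed the test in either direction, 11.7% that rose and 12.2% that fell. The median difference was -0.97 over the 49 genes and 0.03 over all probe sets. In brain, 30 fell and 0 rose (7 against 7 arrays), against 21.3% of all probe sets passing, 10.5% rising and 10.8% falling, with medians of -0.85 and 0.03. Among the core subunits, 27 of 33 fell in each tissue, with median differences of -1.20 in pineal and -1.09 in brain. The arrays at 10 days lay wholly below those at 3 days for 11 of the 49 genes in pineal, against 3.19% of all probe sets, and for 15 in brain, against 6.10%.

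Of the alpha ring, 7 of 8 genes fell in each tissue. For psma4, which encodes a subunit of that ring, the pineal arrays ranged from 10.55 to 12.34 with a median of 11.80 at 3 days, and from 9.09 to 10.53 with a median of 9.74 at 10 days. The groups did not overlap, and the difference was -1.98 ± 0.23, or 3.95-fold (limma, adjusted p = 1.62e-10). In brain psma4 went from a range of 11.38 to 12.24 to a range of 9.72 to 10.47, again without overlap, a difference of -1.87 ± 0.24 (limma, adjusted p = 3.18e-09). The exception was psma6l, an additional alpha-type gene, which differed by -0.19 ± 0.33 in pineal and 0.01 ± 0.34 in brain and did not pass the test.

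All 7 constitutive beta genes fell in each tissue. The 3 that carry the catalytic sites are psmb5 (chymotrypsin-like), psmb6 (caspase-like) and psmb7 (trypsin-like). For psmb5 the brain arrays lay between 8.43 and 9.49 at 3 days (median 8.89) and between 6.39 and 7.93 at 10 days (median 7.55). They did not overlap, and the difference was -1.57 ± 0.24 (limma, adjusted p = 4.24e-07). In pineal psmb5 had medians of 8.81 and 7.56 with overlapping ranges, since the highest array at 10 days reached 9.36, and it fell by 1.18 ± 0.23. The falls of psmb6 were smaller, -0.77 ± 0.19 in pineal and -0.85 ± 0.20 in brain, and those of psmb7 were -1.21 ± 0.18 and -0.99 ± 0.19. Among the beta genes that carry no catalytic site, psmb1 fell by 1.65 ± 0.20 in pineal and by 1.43 ± 0.20 in brain.

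In the 19S cap, 5 of 7 ATPase genes fell in pineal and 6 of 7 in brain. The ATPase gene psmc1a fell by 1.49 ± 0.24 in pineal and by 1.57 ± 0.25 in brain, with no overlap between ages in either tissue. Its paralog psmc1b, by its brightest probe set, differed by 0.26 ± 0.28 and -0.26 ± 0.30 and did not pass. Its other probe sets gave 0.87 (limma, adjusted p = 0.0355) and -0.03 in pineal, so the probe sets of this gene disagree. The probe set at 0.87 had a mean level of 4.67, near 4, the lowest value the scale allows. The one at -0.03 had a mean level of 7.70. Of the 4 base genes, 2 fell in pineal and 3 in brain: the ubiquitin receptor genes psmd4a and psmd4b in both tissues, and in brain also the scaffold gene psmd1 (-1.08 ± 0.25), which was at -0.52 ± 0.24 in pineal and did not pass there.

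Of the 7 lid genes, 6 fell in pineal and 4 in brain. The lid gene psmd8 gave the largest fall of the 49 genes in pineal. Its arrays ranged from 8.99 to 9.95 at 3 days (median 9.33) and from 6.55 to 8.68 at 10 days (median 7.36), a difference of -2.06 ± 0.24, or 4.17-fold (limma, adjusted p = 2.09e-10). In brain it fell by 1.57 ± 0.25, and the groups overlapped in neither tissue. The lid gene psmd11b, whose subunit is known in other species to hold the lid to the core, fell by 1.79 ± 0.23 and 1.50 ± 0.24. The lid gene psmd12 fell by 1.65 ± 0.27 in pineal by its probe set of highest mean, but by its other probe set the difference was -0.45 (adjusted p = 0.196). In brain the same pair of probe sets gave -1.11 and -0.12. The lid gene psmd3 did not move with the others, with 0.08 ± 0.42 in pineal and -0.01 ± 0.44 in brain.

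**Figure D2:**
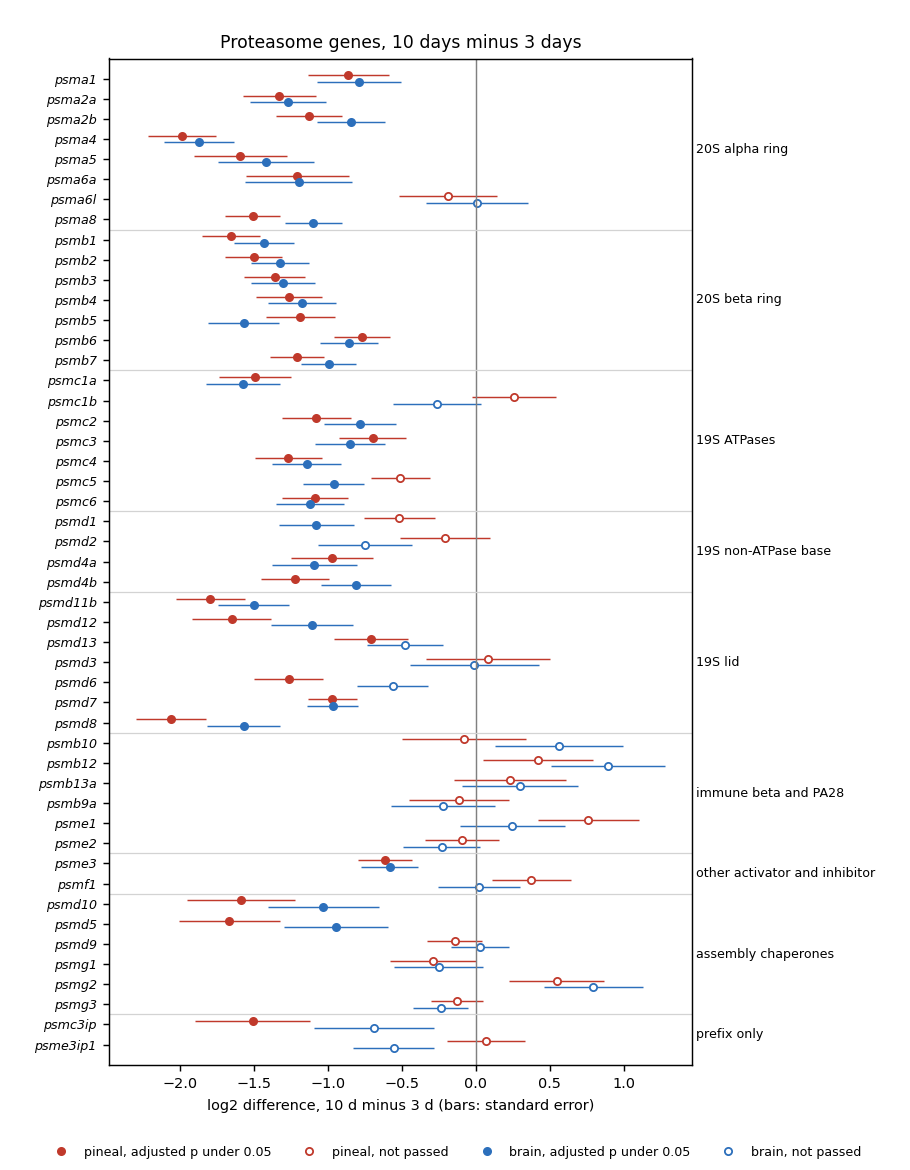
The log2 difference between 10 and 3 days for each of the 49 genes, grouped by role, in pineal (red) and brain (blue). Filled points passed the test, open points did not, and bars are standard errors. The 33 core subunits lie mostly left of 0, down to -2.06 for psmd8, while none of the 6 immune genes passed.

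Of the 6 assembly chaperones, 2 fell in each tissue, psmd5 and psmd10. By contrast psmd9 was at -0.14 in pineal and 0.03 in brain and did not pass. Its other probe set gave -0.29 and -0.06, also not passing. The chaperone gene psmd5 fell by 1.66 ± 0.34 in pineal and by 0.94 ± 0.35 in brain, the latter just within the threshold (limma, adjusted p = 0.0452) and lost in 10 of the fits that left out 1 array. The fall of psmd10 in brain was lost in 7 of them. The alpha-ring chaperone genes psmg1 and psmg3 lay between -0.29 and -0.13 in both tissues and did not pass, and psmg2 was at 0.55 ± 0.32 and 0.79 ± 0.33, also not passing. The activator gene psme3 fell by 0.61 ± 0.18 in pineal and 0.58 ± 0.19 in brain, and the inhibitor gene psmf1 passed in neither tissue. The binding partner gene psmc3ip, which encodes a meiotic recombination protein, fell in pineal by 1.51 ± 0.39, while its other probe set gave -0.58 and did not pass (limma, adjusted p = 0.274).

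None of the 6 immune genes passed the test between 3 and 10 days in either tissue. Their median differences were 0.07 in pineal and 0.27 in brain. The widest of them was psmb12 in brain, at 0.89 ± 0.39 with an interval from 0.12 to 1.66 (limma, adjusted p = 0.0944). In brain psmb12 did pass when only the arrays compared were fitted (0.93) and with array weights (0.96). In pineal psme1 passed with the replicate block (0.80).

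Whether the fall differed between pineal and brain was tested as an interaction, a comparison added after the values were seen. None of the 49 genes passed (limma, 0.361% of all probe sets did), and 1 had an unadjusted p under 0.05. For psmd8 the difference of differences was -0.49, with a 95% interval from -1.18 to 0.19, and for psma4 it was -0.11, from -0.77 to 0.54. These intervals are wide, and the test does not show that the falls were alike.

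Other genes of the ubiquitin pathway were mixed over the same interval. Of 46 measured genes for ubiquitin, its conjugation and its proteasome adaptors, 4 rose and 10 fell in pineal, with a median of -0.07, and 3 rose and 10 fell in brain, with a median of -0.14. The gene pomp, whose product matures the beta rings, fell by 1.74 ± 0.24 in pineal. The gene ube2g1a, for a ubiquitin-conjugating enzyme, fell by 1.17 ± 0.17 in brain. The gene sqstm1, for an autophagy receptor that binds ubiquitin, rose by 2.08 ± 0.24 in pineal and 2.36 ± 0.25 in brain. Markers of dividing cells moved in the direction of the core: 15 of 17 fell in each tissue, with medians of -2.16 in pineal and -2.27 in brain, among them in pineal the histone gene h2az2b (-3.31 ± 0.22) and the nucleotide synthesis gene tyms (-4.30 ± 0.36). Over the same interval 11 of 16 muscle markers and 6 of 14 skin markers fell in brain, with medians of -1.80 and -0.79, and 3 and 5 fell in pineal. The part of dividing cells, muscle and skin in the fall of the core subunits was not tested.

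The next step, from 10 days to 3 months, was likewise compared after the values were seen, and it shares its 10-day arrays with the comparison above. In pineal 27 of the 49 genes rose and 1 fell (limma, 6 against 8 arrays), against 33.9% of all probe sets passing, 16.5% rising and 17.4% falling, with a median of 0.75 over the genes and -0.06 over all probe sets. In brain 23 rose and 0 fell (6 against 7 arrays), against 21.7% passing, 10.8% rising and 10.9% falling, with medians of 0.61 and 0.03. Without replicate 3 of the 10-day brain arrays taken by day, the brain count was 15. The alpha gene psma4 rose by 1.96 ± 0.24 in pineal and 1.33 ± 0.24 in brain. The chaperone gene psmd5 rose by 1.85 ± 0.35 and 1.31 ± 0.36, and the beta gene psmb4 by 1.43 ± 0.23 and 0.88 ± 0.24. The catalytic beta gene psmb6 instead fell in pineal, by 0.57 ± 0.20. That call was lost with no scaling between arrays (limma, adjusted p = 0.062). It was also lost when only the arrays compared were fitted (limma, adjusted p = 0.086). Of the 17 markers of dividing cells, 6 rose and 1 fell in pineal over this step, with a median of 0.59. In brain 4 rose and 1 fell, with a median of 0.07.

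**Figure D3:**
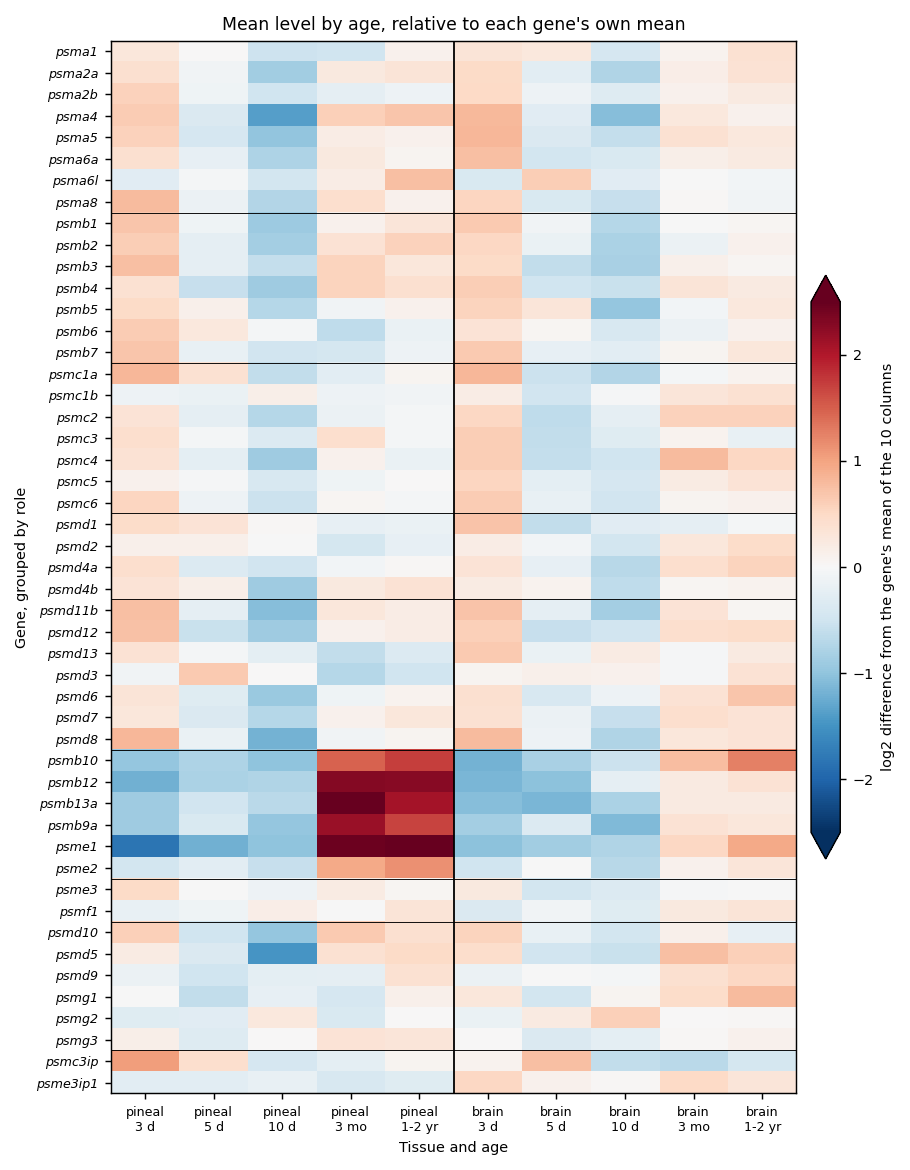
The mean level of each of the 49 genes at each age in pineal (left 5 columns) and brain (right 5 columns), as the log2 difference from the gene's own mean over the 10 columns. Rows are grouped by role with the immune genes between the lid and the other activators. Most core subunits are above their mean at 3 days and below it at 10 days, and the 6 immune genes are above their mean at 3 months and at 1 to 2 years, most of all in pineal.

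The comparison of adult with larval ages gives each age equal weight. In pineal 20 of the 49 genes were higher in adults and 5 were lower (limma, 14 against 24 arrays), against 47.4% of all probe sets passing, 22.9% higher and 24.5% lower. The median was 0.28 over the genes and -0.05 over all probe sets. In brain 18 were higher and 0 lower (12 against 19 arrays), against 35.4% passing, 19.1% higher and 16.3% lower, with medians of 0.30 and 0.05. With no scaling between arrays the median of all probe sets in pineal moved to 0.28 and the split of the genes was 22 higher and 3 lower. With the arrays centred on their medians it was 11 higher and 8 lower, and the median over the genes was -0.01. All 6 immune genes were higher in adults in both tissues under each of these scalings, and in pineal they were the 6 largest rises among the genes named.

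The PA28 subunit gene psme1 had the largest difference. Its larval pineal arrays ranged from 4.24 to 8.72 with a median of 6.89, and its adult pineal arrays from 9.94 to 11.81 with a median of 10.65. The groups did not overlap, and the difference was 3.94 ± 0.22, or 15.4-fold (limma, adjusted p = 6.58e-24). In brain its arrays ranged from 5.97 to 8.18 in larvae (median 7.24) and from 8.28 to 9.64 in adults (median 8.76), again without overlap, a difference of 1.59 ± 0.25, or 3.01-fold (limma, adjusted p = 2.20e-07). Its partner psme2 rose less, by 1.48 ± 0.16 in pineal and 0.60 ± 0.18 in brain, and its adult and larval arrays overlapped in both tissues.

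Among the immune beta genes, psmb12 had larval pineal arrays between 4.26 and 7.19 (median 5.03) and adult ones between 7.49 and 9.80 (median 8.32). These did not overlap, and the difference was 3.19 ± 0.24, or 9.15-fold (limma, adjusted p = 4.43e-18). In brain its medians were 5.33 and 6.49 with overlapping ranges, a 2.14-fold difference (limma, adjusted p = 6.25e-04). For psmb13a the larval pineal median was 5.21 and the adult 8.32, with ranges of 4.42 to 6.50 and 6.94 to 8.99, a difference of 2.97 ± 0.25 in pineal against 1.21 ± 0.27 in brain. For psmb9a, the zebrafish gene named after the mammalian interferon-induced beta 1 subunit, the pineal medians were 6.19 and 8.62, with no overlap. It rose by 2.67 ± 0.22 in pineal and by 1.08 ± 0.24 in brain. For psmb10, named after the mammalian interferon-induced beta 2 subunit, the pineal medians were 6.14 and 8.76, also with no overlap, and the rises were 2.50 ± 0.27 in pineal and 1.84 ± 0.30 in brain. Of the 6 immune genes, 5 thus had adult pineal arrays wholly above the larval ones, against 1.41% of all probe sets, and 1 did in brain, against 1.72%.

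**Figure D4:**
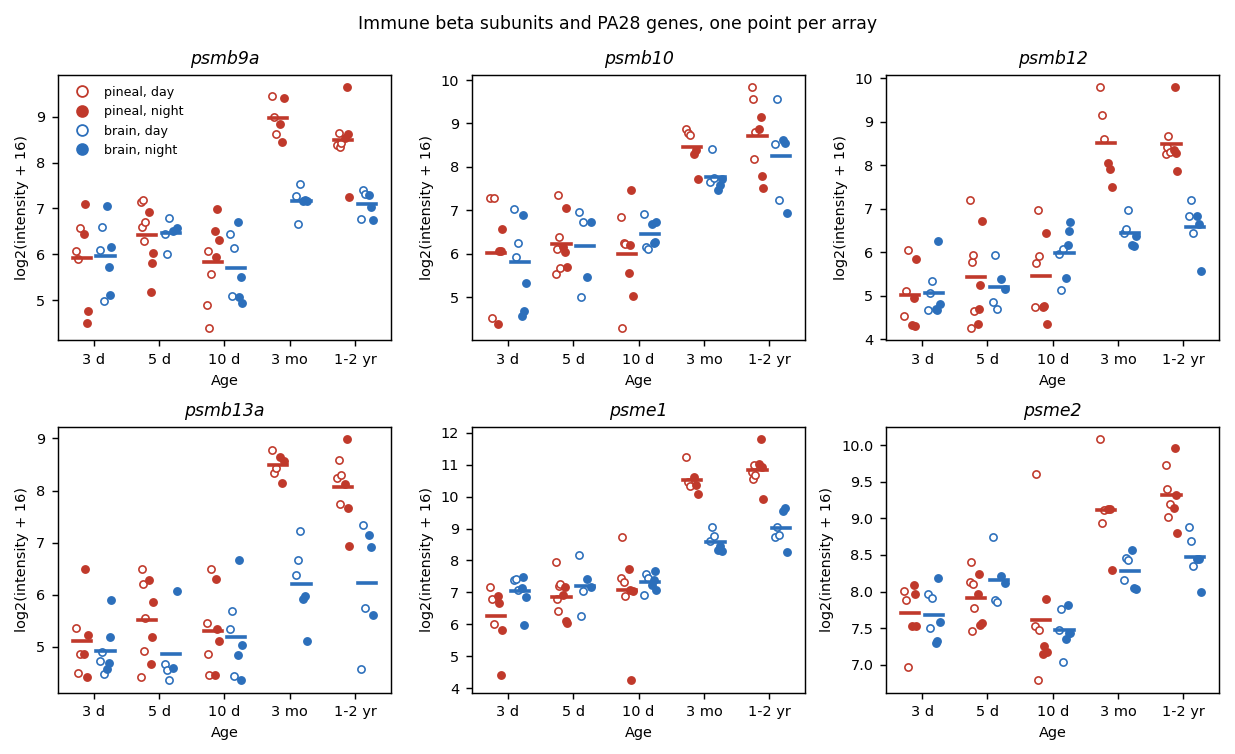
The 6 immune genes on every array, as log2(intensity + 16), against age. Points are arrays, red for pineal and blue for brain, open for day and filled for night, and lines are means over day and night. In each panel the adult pineal means lie above the larval ones, from 6.25 at 3 days to 10.8 at 1 to 2 years for psme1, and the vertical axes differ between panels.

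Several of these genes were near the lowest value the scale allows, which is 4, in larvae, so the size of their rise depends on the added constant. For psmb12 in pineal it was 4.14 with a constant of 1 and 2.17 with 64, and for psmb13a it was 3.81 and 2.00. Both remained past the threshold in each case. In the GRCz12tu annotation psmb13a, psmb8a, psmb12 and psmb9a follow each other on chromosome 19 with 0 protein-coding genes between them, whereas psmb10 is on chromosome 4, psme1 on 24 and psme2 on 12. The rises were therefore shared by genes at 4 separate places in the genome.

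Of the 6 immune genes, 5 rose more in pineal than in brain. Tested as an interaction, the change from larval to adult ages differed between the tissues for 12 of the 49 genes (limma, against 36.9% of all probe sets), 7 in favour of pineal and 5 in favour of brain. In favour of a tissue means a higher adult minus larval difference there, whether by a rise in it or a fall in the other. Thus psmb6 and psmb7, in favour of brain, fell in pineal and did not pass in brain. The difference of differences was 2.35 ± 0.33 for psme1 (adjusted p = 2.27e-08 by limma), 2.09 ± 0.36 for psmb12, 1.76 ± 0.37 for psmb13a, 1.59 ± 0.33 for psmb9a and 0.88 ± 0.24 for psme2. For psmb10 it was 0.67 ± 0.40, with a 95% interval from -0.14 to 1.47, and it did not pass, although with no scaling it did (0.97, adjusted p = 0.0458 by limma). The other two in favour of pineal were psma4 (0.65 ± 0.22) and psmb2 (0.48 ± 0.18). The 5 in favour of brain were core genes: the base scaffold gene psmd2 (-0.90 ± 0.29), the catalytic beta genes psmb6 (-0.67 ± 0.18) and psmb7 (-0.44 ± 0.17), and the ATPase genes psmc2 (-0.59 ± 0.23) and psmc4 (-0.58 ± 0.22). Without the 11 arrays with a high GAPDH ratio 7 genes passed, 5 in favour of pineal and 2 of brain, and with median centring 22 passed, 5 and 17. With no scaling the median of all probe sets in this comparison moved from -0.10 to 0.30.

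Markers of other tissues differed between the ages as well. All 16 measured muscle markers were lower in adult than in larval brain, with a median of -4.27, and 13 of 14 skin markers were, with a median of -3.09, while 8 of 12 neuronal markers were higher. In pineal 1 muscle marker was higher and 0 lower, 7 skin markers were higher and 3 lower, and 2 neuronal markers were higher and 9 lower. Of 17 markers of dividing cells, 11 were lower in adult pineal and 15 in adult brain, and 0 were higher. Their medians were -0.69 and -0.94, while the medians of the proteasome genes were above 0. The summed intensity of the muscle markers ranged from 11798.5 to 154146 over larval brain arrays and from 904.4 to 2050.6 over adult ones. The part of these tissues and of dividing cells in the differences of the proteasome genes between ages and tissues was not tested.

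Among the core subunits the median adult change was small, while single genes changed by up to 1.02. In pineal 10 of the 33 core subunits were higher and 5 lower in adults, with a median of 0.19. Of all probe sets 22.9% were higher there and 24.5% lower. In brain 8 core subunits were higher and 0 lower, with a median of 0.22, against 19.1% and 16.3% of all probe sets. In pineal psma4 rose by 1.02 ± 0.15, with arrays from 9.09 to 12.34 in larvae and from 11.13 to 12.22 in adults, which overlap. The 5 falls in pineal were the lid genes psmd3 (-0.81 ± 0.27) and psmd13 (-0.54 ± 0.16), the base gene psmd1 (-0.50 ± 0.16), and psmb6 (-0.70 ± 0.12) and psmb7 (-0.32 ± 0.12). With no scaling the calls of psmd3 (-0.36; limma, adjusted p = 0.277) and psmd1 (-0.33; limma, adjusted p = 0.0771) were lost. That of psmd3 was also lost without the arrays of high GAPDH ratio (limma, adjusted p = 0.0515). Of the catalytic trio, psmb5 was at 0.05 ± 0.15 in pineal and 0.13 ± 0.17 in brain. In brain psmb6 was at -0.03 ± 0.14 and psmb7 at 0.12 ± 0.13, and none of the 3 passed there. Thus in adult pineal 2 catalytic constitutive beta genes were lower while the 4 immune beta genes were higher, and the fall of psmb7 was lost without replicate 1 of the 3-month pineal arrays taken by day.

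In brain the largest rises among the core subunits were in the ATPase genes psmc4 (0.81 ± 0.16) and psmc2 (0.66 ± 0.17). Of the assembly chaperones, 4 of 6 were higher in adult pineal and 3 of 6 in adult brain, psmd5 by 0.97 ± 0.22 and 0.90 ± 0.24. In brain psmd9 was higher by 0.53, but its other probe set gave 0.07 (limma, adjusted p = 0.775). For psmg1 in brain the chosen probe set gave 0.66 and the other 0.23 (limma, adjusted p = 0.499). The inhibitor gene psmf1 was higher in adult brain by 0.55 ± 0.19. In pineal its chosen probe set gave 0.21 ± 0.17, which did not pass, and its other probe set 0.82 (adjusted p = 4.55e-04).

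**Figure D5:**
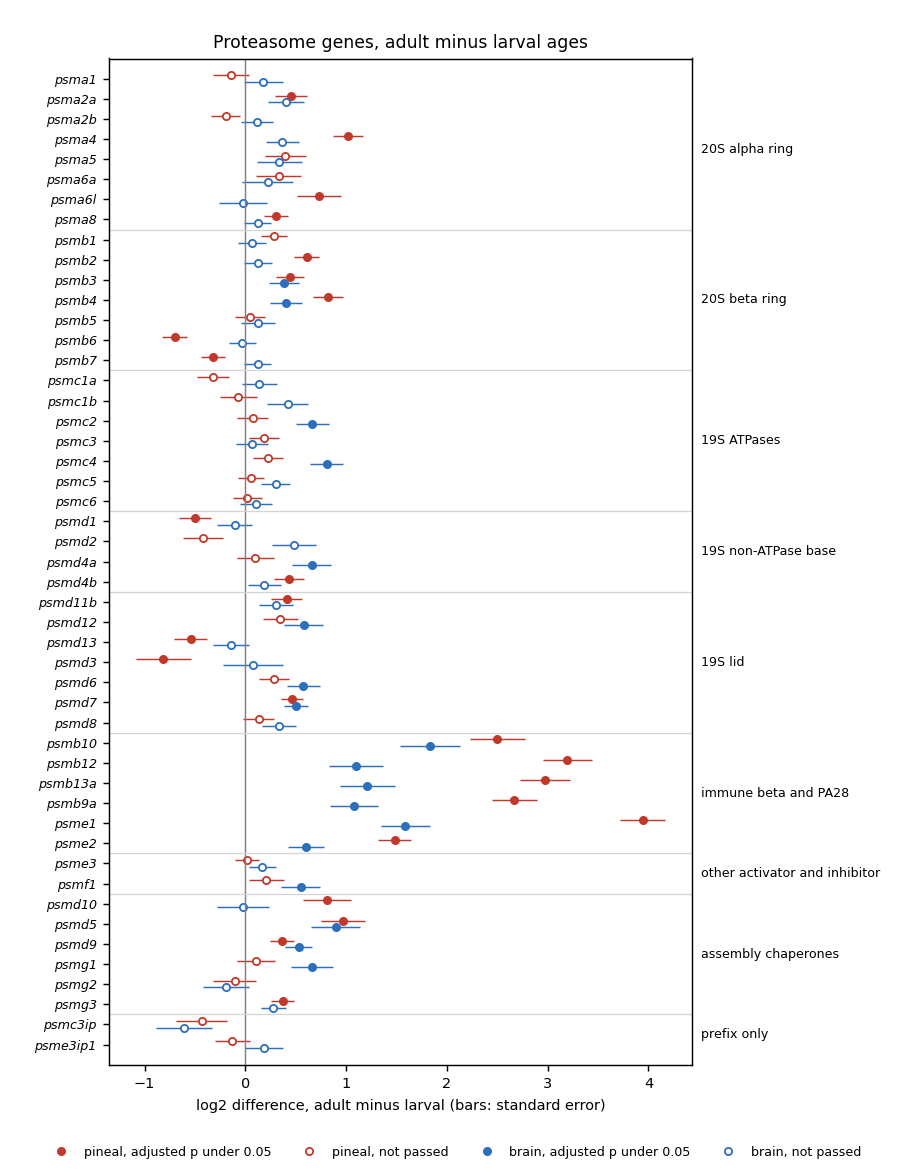
The log2 difference between adult and larval ages for each of the 49 genes, grouped by role, in pineal (red) and brain (blue). Filled points passed the test, open points did not, and bars are standard errors. In pineal the 6 immune genes stand to the right, from 1.48 for psme2 to 3.94 for psme1. In brain they lie from 0.60 to 1.84, and there psme2, at 0.60, lies among other genes such as psmc4 and psmd5. Over both tissues the 33 core subunits lie between -0.81 and 1.02.

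Markers of immune cells rose over the same interval. Of 13 such markers measured, 9 were higher and 2 lower in adult pineal, with a median of 1.55, and 6 were higher and 3 lower in adult brain, with a median of 0.51. The leukocyte gene ptprc rose by 1.85 ± 0.19 in pineal and 0.70 ± 0.21 in brain, while the neutrophil gene mpx fell by 0.88 ± 0.25 in pineal and fell by 2.53 ± 0.27 in brain. The summed intensity of the 13 markers ranged from 1276.3 to 4931.6 over larval pineal arrays and from 7762.1 to 23379.8 over adult ones. In brain it ranged from 1711.8 to 4018.5 in larvae and from 4256.5 to 7360.2 in adults. Of 14 genes of antigen presentation and the interferon response, 12 were higher in adult pineal and 10 in adult brain, and 0 were lower in either. Among them cd74a, the MHC class II invariant chain and also one of the 13 immune cell markers, rose by 7.09 ± 0.22 in pineal and 5.76 ± 0.24 in brain, and b2m, the light chain of MHC class I, rose by 5.53 ± 0.22 in pineal. Of 11 red cell markers, 6 were higher in adults in each tissue, and 3 were lower in pineal and 2 in brain. The part of these cells in the rise of the immune genes was not tested.

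Pineal was then compared with brain. Over the larval ages 1 of the 49 genes was higher in pineal and 1 lower (limma, 24 against 19 arrays), against 16.6% of all probe sets passing, 7.70% higher and 8.92% lower. These were the activator gene psme3 (0.30 ± 0.11, adjusted p = 0.0476) and psme3ip1, the gene of its interacting protein (-0.44 ± 0.16, adjusted p = 0.0452), both close to the threshold. The 3 other probe sets of psme3ip1 gave 0.11, 0.36 and 0.20, and none passed. The call of psme3 was lost in 36 of the fits that left out 1 array and that of psme3ip1 in 22, and the count ranged from 0 to 4. None of the 6 immune genes passed over the larval ages, nor did any core subunit, but some did under alternatives: psme1 was lower in pineal with no scaling (-0.55) and without the arrays of high GAPDH ratio (-0.66). The beta gene psmb4 was lower with the replicate block (-0.35), and psmb6 was higher under 3 alternatives, by 0.30 to 0.34. All 16 muscle markers were lower in larval pineal than in larval brain, with a median of -4.20.

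Over the adult ages 7 genes were higher in pineal and 12 lower (limma, 14 against 12 arrays), against 45.1% passing, 21.5% higher and 23.6% lower. The 5 immune genes psmb13a, psmb12, psme1, psmb9a and psme2 were higher, by 2.06 ± 0.29, 1.98 ± 0.28, 1.88 ± 0.26, 1.60 ± 0.26 and 0.84 ± 0.19. The adult pineal arrays of psme1, from 9.94 to 11.81, lay wholly above those of brain, from 8.28 to 9.64, and those of psmb12 did so too, as for 4.60% of all probe sets. For psmb10 the difference was 0.59 ± 0.32 with a 95% interval from -0.04 to 1.22, and it did not pass. It passed under 4 alternatives: with no scaling (0.74), an added constant of 64 (0.50), only the arrays compared (0.58) and the replicate block (0.68, adjusted p = 0.0369 by limma). The core genes lower in adult pineal numbered 9, among them psmc4 (-0.68 ± 0.17), psmc2 (-0.68 ± 0.18), psmd2 (-0.69 ± 0.23) and psmb7 (-0.47 ± 0.14), and 2 were higher, psma4 (0.46 ± 0.17) and psmb2 (0.49 ± 0.14). With no scaling the calls of psmd2 (-0.41; limma, adjusted p = 0.115), psmd3, psma4 and psmb2 were lost. Without the arrays of high GAPDH ratio those of psmd2 (-0.50; limma, adjusted p = 0.092), psmd3, psmd13, psmb6 and psma4 were lost.

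The split of the calls in adults depended on the scaling. With no scaling 9 of the 49 genes were higher and 9 lower, and with median centring 5 were higher and 20 lower. With median centring the core genes psma4 and psmb2 were at -0.02 and -0.04 and did not pass. The counts include the immune genes, and the share of all probe sets passing under these scalings is not given. They therefore do not show a shift particular to the core. The 5 immune genes were higher under each scaling. In adult pineal 11 of 12 neuronal markers were lower than in brain and 1 was higher. Of 14 skin markers 13 were higher, and 9 of 13 immune cell markers were higher and 1 lower. The gene psmb8a, which the choice of genes left out and which lies between psmb13a and psmb12, was higher in adult pineal by 2.40 ± 0.27. Over all 5 ages, 7 genes were higher in pineal and 7 lower, against 37.5% passing, 17.8% higher and 19.6% lower. The lower ones included psme3ip1 (-0.56 ± 0.12) and the chaperone gene psmg1 (-0.43 ± 0.14), and the higher ones psmb13a (1.00 ± 0.18) and psmb12 (0.73 ± 0.18). The other probe sets of psme3ip1 (0.07, -0.10 and -0.27) and of psmg1 (0.09) did not pass, and psmg1 was lost without the arrays of high GAPDH ratio (limma, adjusted p = 0.0693). Among the lower genes psmc2 and psmd9 were also lost without those arrays. Among the higher ones psmb3, psme1, psme2 and psme3 were lost without them and with median centring. The call of psmb12 was lost with an added constant of 1 (limma, adjusted p = 0.0534).

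Between 3 months and 1 to 2 years none of the 49 genes passed in pineal (limma, 8 against 6 arrays) or in brain (6 against 6), where 0.174% and 0.0839% of all probe sets passed. At an unadjusted p under 0.05 there were 4 in pineal and 0 in brain. In pineal the chaperone gene psmd9 was at 0.62 ± 0.19 (adjusted p = 0.281 by limma), with a 95% interval from 0.23 to 1.01, and its other probe set gave 0.13. The intervals for psme1, from -0.40 to 1.03 in pineal and from -0.33 to 1.19 in brain, include changes of up to about 2-fold.

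Night and day were compared because the pineal is a clock-driven tissue. In pineal 2 of the 49 genes were lower at night and 0 higher (limma, 19 against 19 arrays), against 2.64% of all probe sets passing, 1.34% higher and 1.30% lower. For the chaperone gene psmd9 the day arrays ranged from 7.38 to 9.45 (median 8.38) and the night arrays from 6.90 to 8.52 (median 8.05), a difference of -0.49 ± 0.12 (adjusted p = 0.00932 by limma). Its other probe set gave -0.04 (adjusted p = 0.942 by limma). For the ubiquitin receptor gene psmd4a the medians were 8.51 by day and 7.94 by night with overlapping ranges, a difference of -0.60 ± 0.17 (adjusted p = 0.0423 by limma). Neither passed when only pineal arrays were fitted (limma, adjusted p = 0.0789 and 0.132), and psmd4a was lost in 18 of the fits that left out 1 array. The call of psmd4a was also lost with median centring and with array weights (limma, adjusted p = 0.0814 and 0.0876). Without the arrays of high GAPDH ratio psmd4a was at -0.38 and did not pass (limma, adjusted p = 0.282). In brain 0 genes passed (0.922% of all probe sets), with 5 at an unadjusted p under 0.05. The difference between the tissues passed for 0 genes (0.129%), with 4 at an unadjusted p under 0.05.

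With a 2-fold limit added to the test, fewer genes passed. In adult against larval pineal 7 passed, against 15.6% of all probe sets, and in brain 5, against 11.6%. The difference between the tissues in that change passed for 4, against 22.8%. Between 10 and 3 days in brain 19 passed, against 12.0%, and between 3 months and 10 days in brain 10, against 12.7%. For pineal against brain 4 passed in adults, against 21.0%, 0 in larvae, against 4.02%, and 0 over all ages, against 5.79%. Between night and day in pineal 0 passed, against 0.381%.

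Across the 20 group means, the core subunits tended to move together. The 528 pairs of core genes had a median Pearson r of 0.63, from -0.47 to 0.94, and 492 were positive. The 15 pairs of immune genes had a median of 0.90, from 0.85 to 0.96, and the 198 pairs of a core with an immune gene had a median of 0.13. These are descriptions over 20 points that share ages and arrays. Within groups, as deviations from the group means over the 69 arrays, the median r was 0.24 for core pairs and 0.05 for immune pairs, so the high values among the immune genes lay between groups. Each gene was also set against the median of the core, taken without that gene. The genes most like this median were psmb1 (r = 0.93), psmc6 (0.92) and psmd8 (0.92), and the least like among the core were psma6l (0.05) and psmd3 (0.05). The chaperone gene psmg2 ran against the core at -0.48.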

How the data were processed

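Each of the 69 1-colour arrays came with 1 deposited intensity value per probe set, on a linear scale. The mean of the deposited intensity values of an array without the highest and lowest 2% was 500.1 to 500.2, so the arrays had been scaled to a common target before deposit. The method that summarised the probes was not given in the sources used. From 15617 probe sets 115 controls were left out. To each value 16 was added before the log2 transform. As array medians then spanned 0.87, over the limit of 0.5, the values were quantile normalized. Names came from the platform annotation, and roles and gene lists from general knowledge. The proteasome genes, lists and rules were chosen with earlier results of these data known.

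Samples were grouped by age, tissue and time from their titles. A mean for each of the 20 groups was fitted with limma 3.58.1 in R 4.3.3 (trend on level, 49 residual and 14.31 prior degrees of freedom). Contrasts weighted groups equally, tests were two-sided, and Benjamini-Hochberg adjustment covered all 15502 probe sets. The p-values rest on the spread between labelled replicates. Intervals are at 95%. The rule for naming took in each comparison the 4 largest rises and falls that passed, in each role the gene of smallest adjusted p (or highest mean level), the constitutive catalytic and immune beta genes, and from other lists the 2 of smallest adjusted p. Genes named beyond this, among them psme2, psmb2, psmd5, psmd12, ptprc and mpx, were chosen after their values were seen. The comparisons of 3 months with 10 days, and of the fall from 3 to 10 days between tissues, were added after the values were seen.

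Alternatives were no scaling, median centring, added constants of 1 and 64, a mean level of at least 7, a 2-fold limit, only the arrays compared, array weights, the GAPDH ratio as a covariate, leaving out the arrays with a ratio over 3, all 60 probe sets, the replicate block, and leaving out each array in turn. On simulated data for the comparison of 10 with 3 days in pineal, over 15502 probe sets of which 100 were changed at each size, 80% of changes of 1.5 and 22% of changes of 0.75 (log2) were recovered, with 8 false calls.

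Replicate numbers recur across groups. Deviations from the group means correlated over 0.1 between same-numbered pineal and brain arrays for 11 of 31 pairs, against 10 of 87 pairs of different number. Their median r was 0.07 against -0.04. Between same-numbered day and night arrays 2 of 32 pairs did so, against 7 of 89 of different number. Same-numbered pineal and brain arrays were thus more alike, and the labels do not say whether they are paired. The main fit did not pair them, so its p-values between tissues leave out any such pairing. The replicate block was fitted as an alternative. The number of arrays limits the precision. Sequences were not used here.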

Additional observations from a re-analysis of the deposited data

Results flagged for a closer look

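The change from larval to adult ages differed between pineal and brain for 12 of the 49 genes by limma's interaction test. Of all probe sets 36.9% passed that test. In favour of pineal were psme1 (2.35), psmb12 (2.09), psmb13a (1.76), psmb9a (1.59), psme2 (0.88), psma4 (0.65) and psmb2 (0.48), on the log2 scale. In favour of brain were psmd2 (-0.90), psmb6 (-0.67), psmc2 (-0.59), psmc4 (-0.58) and psmb7 (-0.44). Of these, psmb6 and psmb7 fell in pineal and did not pass in brain. The values for psmb2, psma4, psmc2, psmc4 and psmb7 lay near the threshold, and the calls of all 5 were lost under at least 1 alternative, as were those of psmd2 and psme2.

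Single arrays stood apart from the rest of their group by Dixon's test in 4 of 117 groups of values tried, and chance alone gives about 1 in 20. Replicate 3 of the 3-day brain arrays taken at night had psmb12 at 6.27, with the others between 4.67 and 4.81. Replicate 2 of the 5-day pineal arrays taken by day had psmb7 at 9.78, with the others between 11.36 and 11.52. Replicate 3 of the 10-day pineal arrays taken by day had psmd8 at 7.07, with the others between 7.36 and 7.37, and replicate 3 of those taken at night had psme2 at 7.90, with the others between 7.14 and 7.25.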

How the results depend on the processing

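Each of the 6 immune genes stayed higher in adults and past the threshold, in both tissues, under each alternative that refitted it. From 3 to 10 days 24 to 33 genes passed in pineal and 19 to 36 in brain, with at most 1 and 2 of them rising. Leaving out 1 array in turn moved 4 counts by more than 1.5 times: pineal against brain in larvae (0 to 4), night against day in pineal (1 to 2) and in brain (0 to 1), and 3 months against 10 days in brain (15 to 25). Median centring turned the sign of psma4 (-0.0165), psmb2 (-0.0367) and psme3 (-0.3614) in adult pineal against brain. The same was seen for psme3 in adult against larval pineal (-0.3889), and for psmb2 in the difference of that change between tissues (-0.1038). The values of psma4 and psmb2 did not pass (limma, adjusted p from 0.7267 to 0.9521). Both values of psme3 passed (limma, adjusted p = 0.04255 and 0.01069). Median centring moved the median over the genes to -0.4122 in adult pineal against brain, to -0.0064 in adult against larval pineal, to -0.4158 in the difference between tissues, where 22 genes passed, and to 0.5108 between 3 months and 10 days in pineal. It left 1 call in larval pineal against brain and 1 at night in pineal. With every probe set of the genes the medians were -0.6537 from 3 to 10 days and 0.4814 from 10 days to 3 months, both in pineal. A 2-fold limit left 0 calls in pineal against brain over all ages and in larvae, 4 in adults, 7 in adult against larval pineal and 5 in brain, 4 in the difference between tissues, 19 between 10 and 3 days in brain, 0 at night in pineal and 10 between 3 months and 10 days in brain. Array weights gave 29 in adult pineal against brain, 21 in the difference between tissues, 1 and 7 for night in pineal and brain, and 36 between 3 months and 10 days in brain. Without the arrays of high GAPDH ratio there were 8 in pineal against brain over all ages, 10 in adults, 7 in the difference between tissues and 1 at night in pineal. With only the arrays compared there were 0 in larval pineal against brain, and 0 and 1 at night in pineal and brain. In brain at night 1 gene passed with no scaling, with a mean level of at least 7 and with the replicate block. The replicate block gave 32 and 31 calls between 10 and 3 days in pineal and brain and 13 in the difference between tissues, and moved no other count by more than 1.5 times. The cause of these shifts was not tested, beyond the fewer arrays, genes or calls that some alternatives allow by construction. Except for the 2-fold limit, the share of all probe sets passing under each alternative is not given. The counts under those alternatives therefore do not show whether the proteasome genes changed more than other genes. The arrays limit what can be seen: dim genes such as psmb12 and psmb13a sat near the floor in larvae, so their fold depends on the added constant, and in simulated data 22% of changes of 0.75 were recovered between 10 and 3 days in pineal.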
